A study of Mus musculus with 8 samples.

Results

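Receptors for myeloid growth factors and cytokines were followed in immortalised granulocyte-macrophage progenitors (iGMPs), and 10 genes were chosen by name: Csf2ra, Csf2rb, Csf2rb2, Csf3r, Il3ra, Il6ra, Il6st, Il1r2, Il4ra and Il10ra. They are 10 of 34199 genes in the count files, of which 13080 passed the filter on low counts. All 10 passed, but Il10ra did so only through the HOXA9 OFF libraries. The iGMPs are bone marrow cells of the mouse strain C57Bl/6 that carry HOXA9 fused to the hormone-binding domain of the estrogen receptor (ER-HOXA9) and a GFP reporter under the lysozyme promoter (Lys-GFP). All groups shared these transgenes and a medium with stem cell factor from conditioned medium. The t0 group was taken at 0 h in 150 ng/ml estradiol, which keeps ER-HOXA9 active. The CAF-1 OFF group was given 500 micromolar IPTG for 48 h to express an shRNA against Chaf1b, a subunit of the histone chaperone CAF-1. The IPTG control group was cultured with IPTG for 48 h, and the labels give neither its dose nor its vector. Both CAF-1 OFF and IPTG control were kept in 150 ng/ml estradiol, as t0 was. The HOXA9 OFF group was washed and kept without estradiol for 48 h. Each group had 2 libraries. The shRNA lines are clonal according to the study's methods, and the labels do not say which clone a library came from. The study's supplement refers to RNA-seq of 2 independent sub-clones, but no label ties a replicate number to a sub-clone or a culture, so the spread behind the p-values may be biological or technical.

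GM-CSF, IL-3 and IL-5 bind receptors built of a private alpha chain and a shared beta chain, and signal through the kinase JAK2 to STAT5. The G-CSF receptor pairs with itself and drives granulocyte formation. IL-6 first binds its own alpha chain and then recruits gp130, the product of Il6st, which signals to STAT3. IL-4 and IL-10 receptors use further shared chains, and the type II IL-1 receptor is a decoy that binds IL-1 without signalling. Progenitors of the granulocyte and monocyte lines carry low levels of several of these receptors and gain others as they mature.

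The libraries held from 14044284 to 22423837 counts on genes. Chaf1b was at 96.7 and 100.2 CPM (read counts scaled to a common library total) in t0, 95 and 102 CPM in IPTG control, 18.7 and 9.72 CPM in CAF-1 OFF, and 48.3 and 41.0 CPM in the HOXA9 OFF group. IPTG control replicate 1 had 14.6% of its uniquely aligned reads outside annotated genes, against 5.30% to 7.79% in the other 7 libraries. The 7 GMP markers (Cd34, Kit, Mpo, Elane, Prtn3, Ctsg and Ms4a3) were above 3 counts in every library and summed to 10490 to 14590 CPM in t0, 15930 to 16080 CPM in CAF-1 OFF and 5973 to 8233 CPM in the HOXA9 OFF group. In HOXA9 OFF, Cd34, Kit, Mpo and Ctsg had lower means than in t0. Elane (585 against 361 CPM), Prtn3 (1615 against 1196) and Ms4a3 (550 against 241) had higher means there. The libraries of Elane and Prtn3 overlapped. In CAF-1 OFF, Mpo was at 7774 against 5216 CPM in t0, and the means of Prtn3 and Ctsg were not higher. In these bulk samples a change in the share of cells of a type and a change in RNA per cell cannot be told apart.

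Every member that was called in either treatment against t0 was called higher. A gene was called when its false discovery rate (FDR) was below 0.05 in the quasi-likelihood test of edgeR and its change was at least 1.5-fold. In CAF-1 OFF against t0, 5 of 10 members were called, all higher, where 14.0% of all tested genes were called and 10.5% were called higher. These were Csf2rb, Csf2rb2, Csf3r, Il3ra and Il1r2. The count fell to 3 without t0 replicate 1, t0 replicate 2 or CAF-1 OFF replicate 2. In HOXA9 OFF against t0, 9 of 10 were called, all higher, where 47.2% of all tested genes were called and 25.2% were called higher, and Il6st was the member not called. The median log2 fold change of the members was 1.16 in CAF-1 OFF and 2.72 in HOXA9 OFF cells, and the median over all tested genes was 0.01 and 0.0069. Without Il10ra the counts were 5 of 9 and 8 of 9, and the medians were 1.01 (the value of Il6st) and 2.61 (that of Csf2ra). Both comparisons use the same t0 libraries. Set against IPTG control, CAF-1 OFF also had 5 members called, all higher, where 12.8% of all tested genes were called and 9.56% were called higher. This count fell to 3 without CAF-1 OFF replicate 2 or IPTG control replicate 1 and to 2 without IPTG control replicate 2. Calls over all tested genes in this comparison also fell in fits with a library left out. The median of the members against IPTG control was 1.16, and 1.09 without Il10ra (the value of Il6st). At an FDR below 0.01 and at least 2-fold, 3 members were still called in that comparison (Csf2rb, Csf2rb2 and Il1r2), where 2.16% of all tested genes were called. IPTG control had 0 members called against t0, where 0% of all tested genes were called by edgeR, with 100 genes at an unadjusted p below 0.05 and 5 genes called by DESeq2. This comparison holds IPTG and 48 h of culture together.

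**Figure D1:**
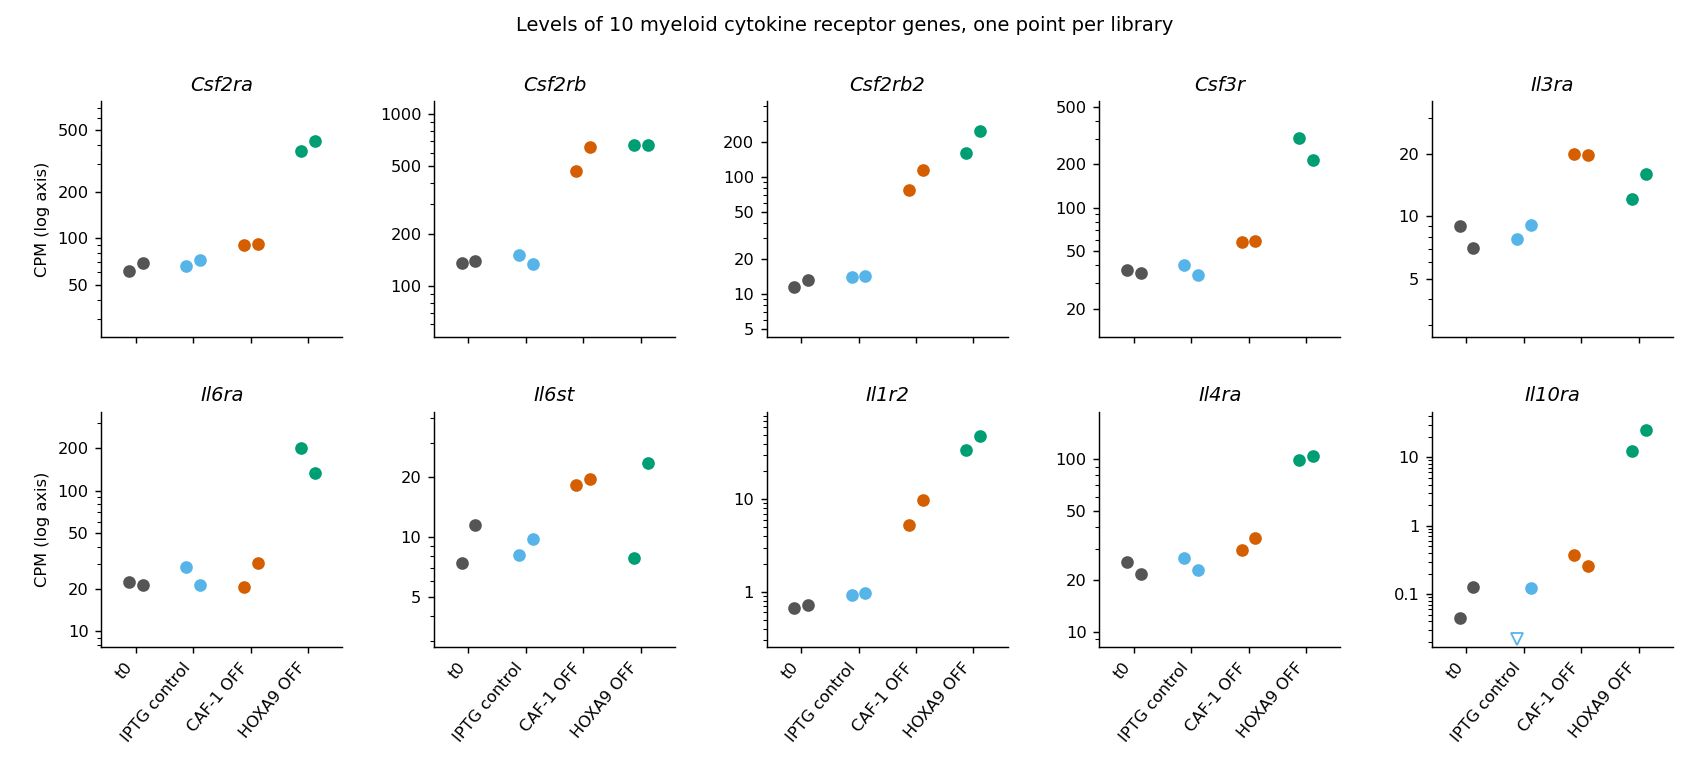
Level of each of the 10 receptor genes in CPM on a log axis, with a panel per gene, a point per library and colours for the groups t0, IPTG control, CAF-1 OFF and HOXA9 OFF (2 libraries each). The open triangle marks the library of Il10ra with 0 counts, drawn below the lowest value. Both HOXA9 OFF points are above all others except for Il3ra and Il6st, and for Csf2rb the CAF-1 OFF points (471 and 649 CPM) come close to them.

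The beta chains of the GM-CSF and IL-3 receptors rose in both treatments. Csf2rb (chr15:78156420-78184277, plus strand of mm9) encodes the chain shared by the receptors for GM-CSF, IL-3 and IL-5. It was at 136 and 140.1 CPM in t0, 151 and 135 CPM in IPTG control, 471 and 649 CPM in CAF-1 OFF and 662 and 660.1 CPM in the HOXA9 OFF group. The libraries of both treatments lay above all t0 and IPTG control libraries, and the CAF-1 OFF values reached up to those of HOXA9 OFF without overlapping them. The rise was 4.05-fold in CAF-1 OFF (log2 fold change 2.02, SE 0.16, FDR 0.0014) and 4.79-fold in HOXA9 OFF cells (2.26, SE 0.16, FDR 2.96e-05). The difference between both treatments was not called (log2 fold change of CAF-1 OFF against HOXA9 OFF -0.24, SE 0.15, FDR 0.221).

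Csf2rb2 (chr15:78112947-78136052, minus strand), a beta chain of the mouse that serves IL-3 only, lies next to Csf2rb with 20367 bases between both gene spans. It was at 11.5 and 13.1 CPM in t0, 13.9 and 14.3 CPM in IPTG control, 77.4 and 113 CPM in CAF-1 OFF and 160.2 and 244 CPM in the HOXA9 OFF group. The groups followed each other with no overlap, although IPTG control was not called against t0 (log2 fold change 0.20, SE 0.25, FDR 1). The log2 fold change against t0 was 2.95 in CAF-1 OFF (SE 0.25, FDR 0.00198) and 4.04 in HOXA9 OFF cells (SE 0.26, FDR 2.29e-05). The level in CAF-1 OFF was 2.12-fold below that in HOXA9 OFF cells (FDR 0.00573).

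Both beta chains are near-identical copies, so their counts are uncertain as values of single genes. Over 2629 aligned coding positions, 95.3% were identical, and the longest run without a difference was 242 bases. Of the 50-base windows of each transcript, 81.2% in Csf2rb and 80.6% in Csf2rb2 occurred in no other protein-coding gene. The windows shown are the most and the least alike of 2179 ungapped stretches of 90 bases, with coding positions counted from the start codon and with capitals at the positions that differ. They show where a read can be told apart: a read inside the first pair fits both genes, and a read inside the second pair can be assigned where it covers capitals.
Csf2rb, coding positions 662 to 751: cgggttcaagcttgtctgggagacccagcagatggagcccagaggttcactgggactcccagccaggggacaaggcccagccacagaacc
Csf2rb2, coding positions 665 to 754: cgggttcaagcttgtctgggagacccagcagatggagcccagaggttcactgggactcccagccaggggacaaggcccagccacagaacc
Csf2rb, coding positions 308 to 397: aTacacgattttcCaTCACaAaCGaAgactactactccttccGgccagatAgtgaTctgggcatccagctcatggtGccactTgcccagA
Csf2rb2, coding positions 311 to 400: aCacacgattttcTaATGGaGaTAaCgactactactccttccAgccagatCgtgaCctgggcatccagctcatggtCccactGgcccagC

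The share of the IL-3-specific beta chain grew with both treatments. The ratio of Csf2rb2 to Csf2rb counts was 0.0846 and 0.0934 in t0, 0.0918 and 0.106 in IPTG control, 0.164 and 0.175 in CAF-1 OFF, and 0.242 and 0.370 in HOXA9 OFF cells. This ratio does not depend on how the libraries are scaled, and the 4 libraries of both treatments lay above the 4 others. The exact permutation test gave p = 0.333 in each treatment against t0 (two-sided), which is the smallest value that 2 against 2 libraries allow.

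The alpha chain of the GM-CSF receptor was called higher in HOXA9 OFF and not in CAF-1 OFF cells. Csf2ra (chr19:61300305-61304321, minus strand) encodes the chain that binds GM-CSF. It was at 61.2 and 69 CPM in t0, 66.3 and 72.1 CPM in IPTG control, 89.9 and 91.1 CPM in CAF-1 OFF, and 368 and 427 CPM in the HOXA9 OFF group. The CAF-1 OFF libraries lay above both control groups, but the 1.39-fold difference from t0 was below the fold needed for a call (log2 fold change 0.47, SE 0.11, FDR 0.0254). In HOXA9 OFF cells the gene rose 6.11-fold (2.61, SE 0.12, FDR 1.19e-05), and the difference between both treatments was called (-2.14, SE 0.12, FDR 2.57e-05).

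The count ratio of Csf2ra to Csf2rb was 0.449 and 0.493 in t0 and 0.191 and 0.140 in CAF-1 OFF, against 0.557 and 0.647 in HOXA9 OFF cells. CAF-1 OFF libraries were lowest of all groups and HOXA9 OFF libraries highest (exact permutation p = 0.333 for each pair of these groups, the smallest possible). Per length, Csf2ra was in t0 at 35.2 ± 2.98 CPM per kilobase of exon (SD, n = 2) against 27.3 ± 0.539 for Csf2rb. Of the windows of Csf2rb 81.2% were unique, against 100% of Csf2ra, so its level is understated and the order of both chains in t0 is not settled. In CAF-1 OFF cells Csf2rb was above, with 48.9 ± 0.483 for Csf2ra and 110.5 ± 25.0 for Csf2rb. In HOXA9 OFF cells the values were 215 ± 22.3 against 130.4 ± 0.273 CPM per kilobase for Csf2ra and Csf2rb.

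Il3ra (chr14:15179009-15188004, plus strand), whose product binds IL-3, and Il6st were the members with their highest group mean in CAF-1 OFF cells. Il3ra was at 9.03 and 7.01 CPM in t0, 7.77 and 9.07 CPM in IPTG control, 19.9 and 19.7 CPM in CAF-1 OFF, and 12.1 and 16.0 CPM in the HOXA9 OFF group. It rose 2.47-fold in CAF-1 OFF (log2 fold change 1.30, SE 0.22, FDR 0.00985) and 1.75-fold in HOXA9 OFF cells (0.81, SE 0.22, FDR 0.0135). The libraries of both treatments did not overlap, but their difference was not called (0.50, SE 0.21, FDR 0.081). Scaled by library size alone, that difference was called (0.73, FDR 0.021). The call in CAF-1 OFF was lost without t0 replicate 1 (FDR 0.0546), t0 replicate 2 (0.0533) or CAF-1 OFF replicate 2 (0.0688). The call in HOXA9 OFF was lost without t0 replicate 2 (0.0859) or HOXA9 OFF replicate 2 (0.0663).

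**Figure D2:**
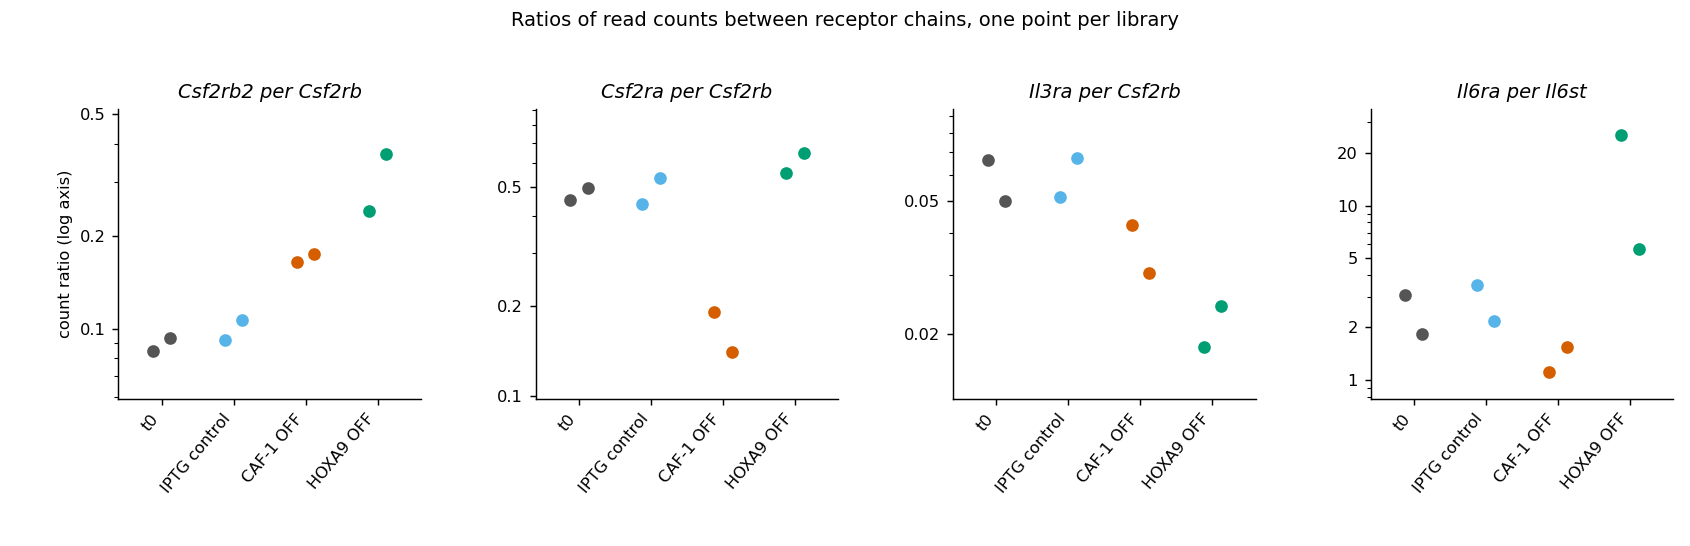
Ratio of the read counts of receptor chains in each library on a log axis, with a panel per pair and a point per library in the groups t0, IPTG control, CAF-1 OFF and HOXA9 OFF. The ratio of Csf2rb2 to Csf2rb is higher in both treatments, that of Csf2ra to Csf2rb is lowest in CAF-1 OFF (0.140 and 0.191), and that of Il6ra to Il6st is highest in HOXA9 OFF (5.61 and 25.5).

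The G-CSF receptor rose slightly in CAF-1 OFF and strongly in HOXA9 OFF cells. Csf3r (chr4:125701794-125722219, plus strand), the receptor of the main growth factor of neutrophils, was at 37.3 and 35.4 CPM in t0, 40.0 and 34.2 CPM in IPTG control, 58.1 and 59.5 CPM in CAF-1 OFF, and 303 and 214 CPM in the HOXA9 OFF group. Both CAF-1 OFF libraries lay above the 4 control libraries and well below HOXA9 OFF. The change was 1.62-fold in CAF-1 OFF (log2 fold change 0.69, SE 0.17, FDR 0.0274) and 7.11-fold in HOXA9 OFF cells (2.83, SE 0.18, FDR 1.95e-05). The direct difference was 4.40-fold (FDR 7.6e-05). The call in CAF-1 OFF against t0 stood near the threshold and was lost on leaving out t0 replicate 1, t0 replicate 2, CAF-1 OFF replicate 1, CAF-1 OFF replicate 2 or IPTG control replicate 1 (FDR 0.123, 0.117, 0.0972, 0.154 and 0.0507).

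The IL-6 receptor chains parted in HOXA9 OFF cells. Il6ra (chr3:89673246-89717084, minus strand), which binds IL-6, was at 22.6 and 21.2 CPM in t0, 28.5 and 21.1 CPM in IPTG control, 20.5 and 30.7 CPM in CAF-1 OFF, and 201 and 133 CPM in the HOXA9 OFF group. CAF-1 OFF overlapped both controls (log2 fold change against t0 0.22, SE 0.26, FDR 0.571), while HOXA9 OFF cells had 7.63-fold more (2.93, SE 0.27, FDR 8.19e-05). Among the members, Il6ra had the smallest change in CAF-1 OFF cells and a direct difference of 6.54-fold between both treatments (FDR 0.000167).

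Il6st (chr13:113265216-113297068, plus strand), which encodes gp130, was at 7.38 and 11.5 CPM in t0, 8.12 and 9.75 CPM in IPTG control, 18.4 and 19.7 CPM in CAF-1 OFF, and 7.86 and 23.8 CPM in the HOXA9 OFF group. The HOXA9 OFF libraries stood far apart, at the levels of the lowest control and above every other library, and the CAF-1 OFF libraries lay close together above both control groups. Neither difference from t0 was called (CAF-1 OFF 1.01, SE 0.46, FDR 0.16; HOXA9 OFF 0.74, SE 0.46, FDR 0.205). The spread of the HOXA9 OFF libraries enters the test of CAF-1 OFF too: without HOXA9 OFF replicate 1 or 2 the CAF-1 OFF difference was called (FDR 0.0216 and 0.0217), and so it was in a fit of the compared libraries alone (0.0264). Without HOXA9 OFF replicate 1 the HOXA9 OFF difference was also called (1.33, FDR 0.00487). The ratio of Il6ra to Il6st counts was 3.05 and 1.84 in t0 and 3.50 and 2.17 in IPTG control. It was 1.12 and 1.55 in CAF-1 OFF and 25.5 and 5.61 in HOXA9 OFF cells. The HOXA9 OFF ratios were above all others but far apart (exact permutation p = 0.333 against t0, the smallest possible).

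Il1r2 (chr1:40141613-40182064, plus strand), the decoy receptor for IL-1, changed most of the members called in CAF-1 OFF cells. Its level was 0.667 and 0.727 CPM in t0, 0.918 and 0.981 CPM in IPTG control, 5.21 and 9.77 CPM in CAF-1 OFF, and 34.3 and 48.7 CPM in the HOXA9 OFF group. The 4 groups did not overlap, and IPTG control was not called against t0 (log2 fold change 0.44, SE 0.43, FDR 1). The rise over t0 was 10.7-fold in CAF-1 OFF (3.41, SE 0.37, FDR 0.00315) and 58.9-fold in HOXA9 OFF cells (5.88, SE 0.39, FDR 2.43e-05). Against IPTG control it was 7.83-fold in CAF-1 OFF cells (2.97, SE 0.37, FDR 0.0052), and this call was lost without IPTG control replicate 2 (FDR 0.0518). The gene overlaps Gm16894 on the opposite strand, and the strand setting of the counting is not given in the sources used here, so reads of both cannot be told apart.

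Il4ra and Il10ra rose in HOXA9 OFF cells. Il4ra (chr7:132695785-132722986, plus strand), the alpha chain of the IL-4 and IL-13 receptors, was at 25.1 and 21.6 CPM in t0, 26.8 and 22.6 CPM in IPTG control, 29.6 and 34.8 CPM in CAF-1 OFF, and 98.2 and 103 CPM in the HOXA9 OFF group. Its level was 4.32-fold higher in HOXA9 OFF cells than in t0 (log2 fold change 2.11, SE 0.15, FDR 2.74e-05). CAF-1 OFF libraries lay above the controls, with 1.38-fold over t0 and no call (0.46, SE 0.14, FDR 0.0558).

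Il10ra (chr9:45061922-45077232, minus strand), which binds IL-10, had 1 and 3 counts in t0, 0 and 2 in IPTG control, 7 and 5 in CAF-1 OFF, and 228 and 514 in HOXA9 OFF cells. The HOXA9 OFF libraries corresponded to 12.4 and 25.5 CPM, and every other library was at or below 0.368 CPM. The ratio of the summed counts of HOXA9 OFF to t0, corrected for depth, was 220.4 (95% exact counting interval 85.7 to 811), and that of HOXA9 OFF to CAF-1 OFF was 61.1 (34.8 to 119). The ratio of CAF-1 OFF to t0 was 3.61 (1.09 to 15.4) on 12 and 4 counts. These intervals rest on counts pooled over both libraries of a group and cover counting error only. They leave out the spread between libraries, such as 228 and 514 counts in HOXA9 OFF, and copies made by PCR cannot be separated. By edgeR the CAF-1 OFF difference was not called (FDR 0.177). The HOXA9 OFF difference was called (FDR 7.76e-05), but the gene entered the test only through its counts in these libraries, so the call is no support beyond the counts themselves.

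**Figure D3:**
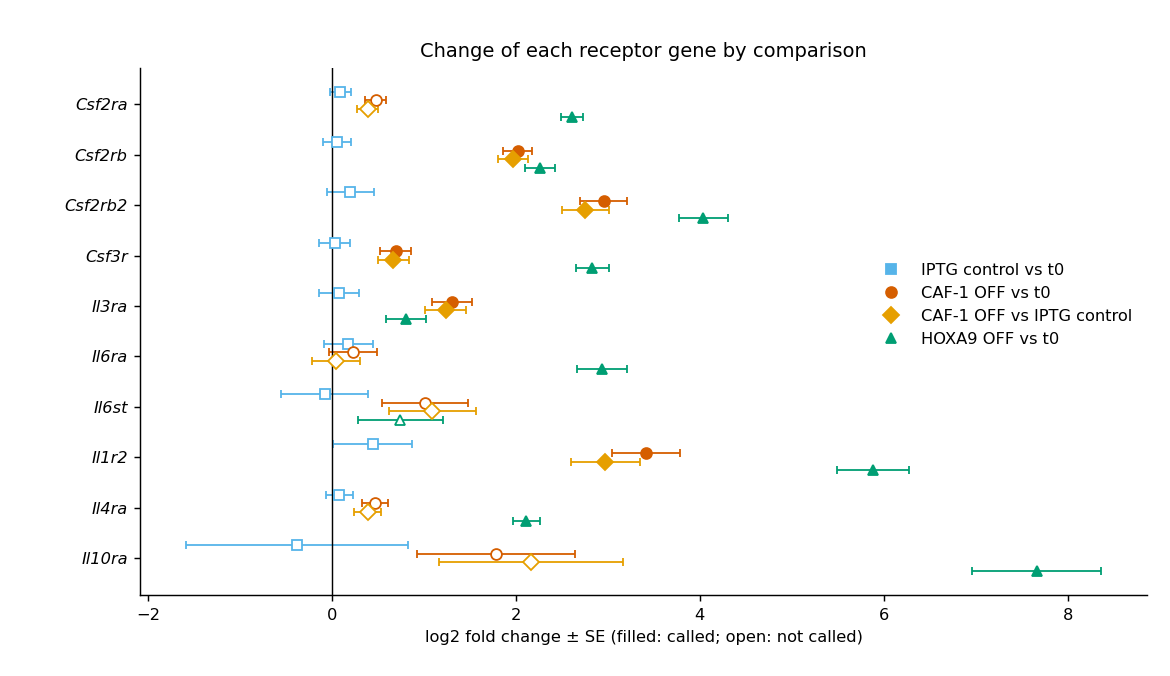
Log2 fold change of each receptor gene with its SE from the edgeR fit of all 8 libraries, for IPTG control, CAF-1 OFF and HOXA9 OFF against t0 and for CAF-1 OFF against IPTG control. Filled symbols are called and open symbols are not. The IPTG control values lie between -0.38 and 0.44, and HOXA9 OFF lies to the right of CAF-1 OFF for all genes except Il3ra and Il6st, with Csf2rb nearly level (2.02 and 2.26).

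Compared directly, 7 of 10 members were called lower in CAF-1 OFF than in HOXA9 OFF cells and 0 higher, where 43.5% of all tested genes were called and 21.4% were called lower. The members' median was -1.89, and that of all tested genes 0.04. Without Il10ra the count was 6 of 9 and the members' median -1.65 (the value of Il4ra). The 3 members not called were Csf2rb, Il3ra and Il6st. Scaling by library size alone moved the median of all genes by -0.19 in HOXA9 OFF against t0 and by 0.23 in the direct comparison. Without HOXA9 OFF replicate 2, Il3ra (0.70, FDR 0.0435) and Il6st (1.27, FDR 0.012) were called higher in CAF-1 OFF cells.

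The order of levels within the family also changed. Per kilobase of exon, Csf2ra and Csf2rb were the highest members in t0, and Csf3r followed at 8.77 ± 0.32 CPM per kilobase. Il1r2 was at 0.521 ± 0.032 and Il10ra at 0.0247 ± 0.017, the lowest of the members. In CAF-1 OFF cells Csf2rb2 had moved to the third place with 20.6 ± 5.50, above Il3ra (14.2 ± 0.12) and Csf3r (14.2 ± 0.23), whose ranges overlapped. In HOXA9 OFF cells Csf3r (62.4 ± 15.2), Il6ra (39.9 and 60.1 in its libraries) and Csf2rb2 (43.7 ± 12.8) followed Csf2ra and Csf2rb with ranges that overlapped, Il1r2 reached 31.0 ± 7.62, and Il6st was the lowest at 3.04 ± 2.16 CPM per kilobase, with a range that overlapped Il10ra (5.41 ± 2.65).

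The summed neutrophil markers were higher in both treatments than in t0, carried by different genes, and the summed monocyte or macrophage markers were higher in HOXA9 OFF, with no test made of either list. All 8 neutrophil markers (S100a8, S100a9, Ltf, Camp, Ngp, Lcn2, Mmp8 and Cxcr2) were above 3 counts in both libraries of t0, CAF-1 OFF and HOXA9 OFF. Their sum was 94.8 to 96.0 CPM in t0, 98.3 to 98.7 CPM in IPTG control, 1280 to 2217 CPM in CAF-1 OFF and 6155 to 9048 CPM in the HOXA9 OFF group. In CAF-1 OFF cells most of this sum was Mmp8, at 50.8 ± 10.6 CPM in t0, 1513 ± 598 in CAF-1 OFF and 466 ± 127 CPM in HOXA9 OFF cells, while S100a8 was at 2.45 ± 0.87, 36.2 ± 11.7 and 1915 ± 556 CPM. Ltf, a gene of secondary granules, was at 0.369 ± 0.082 CPM in t0, 0.498 ± 0.035 in CAF-1 OFF and 1204 ± 333 CPM in the HOXA9 OFF group. The 7 monocyte or macrophage markers summed to 386 to 550 CPM in t0, 250.1 to 524 CPM in CAF-1 OFF and 1197 to 1831 CPM in the HOXA9 OFF group, with Marco at 0 in every group. Most of the sum in t0 and CAF-1 OFF was Ccr2, at 426 ± 135 and 311 ± 216 CPM and at 226 ± 86 CPM in HOXA9 OFF cells. Cx3cr1 was higher in both treatments (1.01 ± 0.77 CPM in t0, 12.7 ± 2.35 in CAF-1 OFF and 21.6 ± 4.49 in HOXA9 OFF). The other detected members also had higher means in CAF-1 OFF than in t0, at 14.2 ± 3.90 against 4.40 ± 0.96 CPM for Csf1r. Cd68 was at 11.03 ± 2.65 against 5.94 ± 2.36 CPM and Mrc1 at 3.27 ± 1.8 against 0.417 ± 0.166 CPM. For Emr1 both means were close, at 34.4 ± 11.5 against 29.9 ± 15.1 CPM. The CAF-1 OFF sum thus followed Ccr2, whose libraries overlapped those of t0. The 6 mast cell or basophil markers summed to 149.8 to 204 CPM in t0, 658 to 1046 CPM in CAF-1 OFF and 167 to 223 CPM in the HOXA9 OFF group, with Tpsab1 at 0 in t0, IPTG control and CAF-1 OFF and Fcer1a at 0 in t0 and IPTG control. In every group 4 of these 6 were above 3 counts in both libraries. The like sums of t0 and HOXA9 OFF held a lower Mcpt8, at 31.9 ± 3.45 CPM in t0, 247 ± 27.8 in CAF-1 OFF and 6.66 ± 1.01 CPM in HOXA9 OFF, while Cpa3 was at 135 ± 28.1, 593 ± 241 and 179 ± 43.8 CPM, with the t0 and HOXA9 OFF libraries overlapping. Megakaryocyte markers (5 genes, Gp1bb at 0 in every group) went from 23.6 to 25.2 CPM in t0 to 189 to 217 CPM in CAF-1 OFF and 128 to 138 CPM in the HOXA9 OFF group, and eosinophil markers (4 genes) from 524 to 1113 CPM to 1215 to 1384 and 7525 to 12280 CPM. Most of the megakaryocyte sum in HOXA9 OFF was Itga2b, at 16.2 ± 1.86 CPM in t0, 91.8 ± 24.4 in CAF-1 OFF and 104 ± 14.8 CPM in HOXA9 OFF. Pf4, a platelet chemokine, was at 2.85 ± 0.26, 90.03 ± 48.5 and 11.03 ± 13.8 CPM, so its libraries were far apart in both treatments. The 4 B cell markers summed to 90.8 to 109 CPM in t0, 91.1 to 136 CPM in CAF-1 OFF and 4.88 to 9.42 CPM in the HOXA9 OFF group, where Pax5 was at 0. The 4 T cell markers were also lowest there (2.05 to 5.99 CPM in t0, 5.05 to 6.43 in CAF-1 OFF and 0.108 to 0.149 in HOXA9 OFF), with Cd3e, Cd3g and Cd8a at 0 in every group. The 5 erythroid markers summed to 2.40 to 2.99 CPM in t0, 5.85 to 6.52 CPM in CAF-1 OFF and 1.98 to 3.20 CPM in the HOXA9 OFF group. The 3 stromal markers were at 15.4 to 26.6, 29.5 to 40.2 and 9.11 to 11.6 CPM. B cell, T cell and stromal sums were thus lower in both HOXA9 OFF libraries than in every t0 library, and erythroid and stromal sums higher in both CAF-1 OFF libraries. The part of these cell types in the receptor levels was not tested.

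The rest of the cytokine pathway was described by lists of 38 other receptors, 18 ligands, 11 kinases and STATs, 16 inhibitors and 8 STAT target genes, 91 genes in all, of which 75 were tested. In CAF-1 OFF against t0, 22 of the 75 were called higher and 0 lower, where 14.0% of all tested genes were called and 10.5% were called higher. In HOXA9 OFF against t0, 41 were called higher and 9 lower, where 47.2% were called and 25.2% were called higher. The medians were 0.39 and 0.79. IPTG control against t0 had 0 calls.

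Among other receptors, 12 of 32 tested were called higher in CAF-1 OFF and 0 lower (all tested genes: 10.5% higher). Csf1r, the receptor for M-CSF, was at 5.07 and 3.72 CPM in t0, 11.5 and 17 CPM in CAF-1 OFF and 465 and 853 CPM in the HOXA9 OFF group (log2 fold change 1.69, SE 0.41, FDR 0.0266, and 7.23, SE 0.46, FDR 2.02e-05). Il1rap, the accessory chain of the IL-1 receptor, rose in CAF-1 OFF cells (1.07, SE 0.24, FDR 0.0217) and was not called in HOXA9 OFF cells (0.03, SE 0.24, FDR 0.924). In HOXA9 OFF cells, 18 receptors were called higher and 5 lower (all tested genes: 47.2% called). Flt3, the receptor of FLT3 ligand on early progenitors, fell from 245 and 349 CPM in t0 to 9.27 and 2.43 CPM in the HOXA9 OFF group (-5.68, SE 0.57, FDR 0.000115) and was at 316 and 216 CPM in the CAF-1 OFF group. Tnfrsf1a and Tnfrsf1b, both receptors for TNF, rose in HOXA9 OFF cells by 1.91 and 2.25 on the log2 scale, and against t0 also in CAF-1 OFF cells by 0.64 (FDR 0.00945) and 0.61 (FDR 0.00886), but were not called there against IPTG control (0.57 each).

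Of the kinases and STATs, 2 of 11 were called higher in CAF-1 OFF cells, among them Stat3 (0.77, SE 0.10, FDR 0.00516), which is near the 14.0% called over all tested genes. In HOXA9 OFF cells 9 of 11 were called higher and 0 lower, where 47.2% of all tested genes were called and 25.2% were called higher. Jak2, the kinase of the beta chains, went from 37.4 and 47.3 CPM in t0 to 60.7 and 62.6 CPM in CAF-1 OFF (0.54, SE 0.15, FDR 0.0408, below the fold needed) and 211 and 171 CPM in the HOXA9 OFF group (2.17, SE 0.15, FDR 2.95e-05). Stat6, which carries the IL-4 signal, rose by 1.35 (SE 0.09) in HOXA9 OFF cells. Of the STAT5 genes, Stat5a was not called in either comparison against t0 (0.10, FDR 0.577, and -0.54, FDR 0.00689, the latter below the fold needed), and Stat5b was called higher in HOXA9 OFF cells (0.63, SE 0.14, FDR 0.00564) and not in CAF-1 OFF cells (0.27, FDR 0.206).

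Of the inhibitors, 4 of 16 passed as higher in CAF-1 OFF and 0 as lower, where 14.0% of all tested genes were called and 10.5% were called higher. Of the same genes 6 were called higher and 1 lower in HOXA9 OFF cells, where 47.2% of all tested genes were called, so the latter count is near the share over all genes. Sh2b3, an adaptor that dampens JAK2 signalling, rose in both (0.84, SE 0.12, and 1.51, SE 0.12). Of 8 STAT target genes, Pim1 and Ccnd3 were called higher in CAF-1 OFF cells and 0 lower, where 14.0% of all tested genes were called and 10.5% were called higher. Pim1, a kinase gene induced by STAT5 and STAT3, was at 12 and 9.45 CPM in t0, 39.2 and 50.6 CPM in CAF-1 OFF and 69.6 and 53.5 CPM in the HOXA9 OFF group (2.07, SE 0.20, FDR 0.00242, and 2.52, SE 0.20, FDR 4.66e-05). Its direct difference between both treatments was not called (-0.45, SE 0.19, FDR 0.077). In HOXA9 OFF cells 4 target genes were called higher and 2 lower, among them Bcl6 (4.48, SE 0.27) and Ccnd2 (-2.51, SE 0.21), against 47.2% called and 25.2% called higher over all tested genes. Of 8 ligands tested, 2 were called higher in CAF-1 OFF, where 10.5% of all tested genes were, and 4 higher and 1 lower in HOXA9 OFF cells, where 47.2% of all tested genes were called. With 8 genes in each of these lists, the counts cannot be read closely against the shares over all genes. Csf1, the ligand of Csf1r, went from 8.50 and 11.5 CPM in t0 to 63.6 and 315 CPM in the HOXA9 OFF group (4.24, SE 0.69, FDR 0.00125), with libraries far apart, and Il6 fell (-2.10, SE 0.57, FDR 0.0153).

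**Figure D4:**
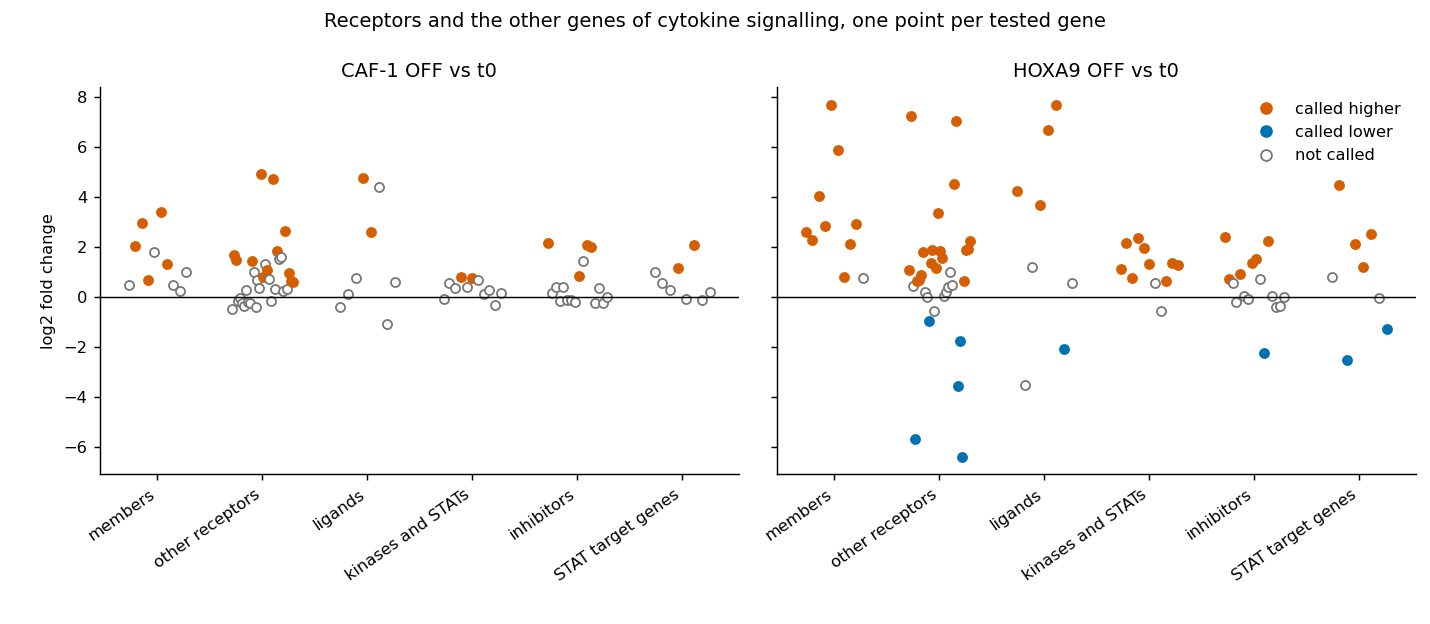
Log2 fold change against t0 of every tested gene of the receptor family (members) and of 5 lists of cytokine signalling genes, for CAF-1 OFF and HOXA9 OFF. Points are orange where called higher, blue where called lower and open where not called, and a point of a gene at 0 counts in a group depends on the prior count of the fit. Blue points are seen in HOXA9 OFF only (9 genes), and 22 listed genes are orange in CAF-1 OFF.

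For the 3 members with the largest range between group means (Il10ra, Il1r2 and Csf2rb2), the genes with the most similar profile over the 8 libraries were searched among 9839 tested genes (9838 for Csf2rb2) by the root-mean-square difference of mean-centred log2 CPM. Il1r2 was nearest to Irf7 (0.22), Tgm2 (0.31) and Cyp4f18 (0.32). Irf7, an interferon-regulated transcription factor, was at 0.890 and 0.812 CPM in t0, 7.52 and 8.05 CPM in CAF-1 OFF and 35.1 and 59.5 CPM in the HOXA9 OFF group. Csf2rb2 was nearest to Ddx58 (0.23), Gpr34 (0.30) and Cd300ld (0.34). Ddx58, which encodes the RNA sensor RIG-I, was at 3.78 and 4.87 CPM in t0, 24.5 and 26.6 CPM in CAF-1 OFF and 40.2 and 68.7 CPM in the HOXA9 OFF group. Il10ra was nearest to Clec4a3 (0.50), Ahnak (0.53) and Id2 (0.62), which were low in t0 and CAF-1 OFF and high in HOXA9 OFF cells. The 8 libraries fall into 4 groups, so such likeness rests on few independent steps.

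Promoter sequences of RefSeq (GRCm38.p6, 250 bases upstream of the start) were matched by symbol for 8 members; Csf2rb and Il10ra had no match. The letters ATTGC or GCAAT, a core of sites bound by C/EBP factors, which act in granulocyte genes, were found in 5 of these 8 windows and in 23.1% of 32851 promoters of the same length. The letters GGAAG or CTTCC, a core of ETS family sites such as those of PU.1, were found in 8 of 8 and in 64.1% of all promoters. Both motifs were searched on both strands, can share only an end letter, and were chosen after the values were seen. The 4 windows of members called higher in both treatments are shown, read from the strand of the gene, with both motifs in capitals. Each of the 4 holds ATTGC or GCAAT, as does Il6ra, and the windows of Csf2ra, Il6st and Il4ra hold neither. A match describes letters only, and no binding was measured here.
Csf2rb2, chr15:78305722-78305971, minus strand: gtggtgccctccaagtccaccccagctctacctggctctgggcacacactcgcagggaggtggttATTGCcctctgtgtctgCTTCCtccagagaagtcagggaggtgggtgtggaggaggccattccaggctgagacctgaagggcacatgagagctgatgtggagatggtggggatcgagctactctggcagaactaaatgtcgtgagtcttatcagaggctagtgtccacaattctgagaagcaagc
Csf3r, chr4:126024409-126024658, plus strand: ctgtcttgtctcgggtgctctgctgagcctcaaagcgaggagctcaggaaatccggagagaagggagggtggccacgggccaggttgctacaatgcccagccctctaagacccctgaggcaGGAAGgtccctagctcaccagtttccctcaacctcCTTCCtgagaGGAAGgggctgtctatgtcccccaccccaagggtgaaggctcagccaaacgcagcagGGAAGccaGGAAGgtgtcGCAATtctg
Il3ra, chr14:14346245-14346494, plus strand: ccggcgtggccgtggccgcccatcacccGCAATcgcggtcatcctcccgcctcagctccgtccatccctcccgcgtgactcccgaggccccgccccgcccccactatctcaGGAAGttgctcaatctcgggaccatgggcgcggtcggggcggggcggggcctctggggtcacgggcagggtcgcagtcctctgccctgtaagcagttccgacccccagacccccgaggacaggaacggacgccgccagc
Il1r2, chr1:40085843-40086092, plus strand: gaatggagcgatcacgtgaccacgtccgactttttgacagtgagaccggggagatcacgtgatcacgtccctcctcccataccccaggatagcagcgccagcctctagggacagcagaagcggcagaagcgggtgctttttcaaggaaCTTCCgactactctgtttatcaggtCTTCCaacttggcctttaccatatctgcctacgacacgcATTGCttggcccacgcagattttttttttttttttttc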

How the data were processed

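Bulk RNA of mouse iGMPs was sequenced in 8 libraries, 2 for each of 4 groups taken from the sample labels. Per the study's methods, the authors prepared libraries with a directional kit, used STAR for alignment to mm9, and obtained gene counts from HTSeq. The deposited files hold those raw counts by gene symbol, without normalization or pooling. The annotation version and the strand setting of the counting are not given in the sources used here. Reads with several alignments were not assigned to genes, which lowers the counts of near-identical copies such as Csf2rb and Csf2rb2. HTSeq's summary lines were kept out of library sizes and tests. Reads outside genes were 5.30% to 14.6% of uniquely aligned reads.

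Tests were made in R 4.3.3 with edgeR 4.0.16: filterByExpr, TMM scaling, 1 quasi-likelihood fit of all 8 libraries with a mean per group, and Benjamini-Hochberg adjustment (FDR) over 13080 genes. A call needed an FDR below 0.05 and a change of at least 1.5-fold, the thresholds of the study. The SE was derived from the F statistic. CPM used TMM-scaled library sizes, and log2 CPM a prior count of 2. The floor was 3 counts in a library. Replicates of a group differed by more than sampling noise (chi-square per degree of freedom 16.6 to 78.2). The code was tested on simulated counts. Library totals from 14044284 to 22423837 give 0.128 to 0.212 CPM for 3 counts. With 2 libraries per group, precision rests on a spread shared over genes and groups.

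All members are described. Of the other pathway genes, up to 6 called genes per list and comparison were to be named, by size of fold, with groups that do not overlap and a mean log2 CPM of at least 2; Stat5a and Stat5b are outside this rule and were chosen after their values were seen. Results of some listed genes are not reported here. Members and lists were chosen with earlier results of these data known. The alternatives were other scalings (DESeq2 size factors, library size), other filters (none, mean count of at least 50), DESeq2 1.42.0, the compared libraries alone, the replicate number as a block, FDR below 0.01 with 2-fold, and leaving out each library. Coordinates and lengths are from GENCODE vM1 on mm9 (NCBIM37), counted from 1. Figures were drawn with matplotlib 3.10.9.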

Additional observations from a re-analysis of the deposited data

Results flagged for a closer look

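No member moved in opposite directions in both treatments, and groups of 2 libraries do not allow a search for outlying samples. Among the other pathway genes, Socs2 and Il12rb1 were called higher in CAF-1 OFF and lower in HOXA9 OFF cells against t0, with the difference between both treatments tested directly. Socs2, an inhibitor of cytokine receptor signalling, was at 3.78 and 6.20 CPM in t0, 19.9 and 22.0 CPM in CAF-1 OFF and 0.813 and 1.29 CPM in HOXA9 OFF cells, and the direct log2 difference was 4.30 (SE 0.43, edgeR FDR 0.000179). Il12rb1, a chain of the IL-12 and IL-23 receptors, was at 5.29 and 4.79 CPM in t0, 12.8 and 14.5 CPM in CAF-1 OFF and 2.06 and 3.07 CPM in HOXA9 OFF cells, with a direct log2 difference of 2.41 (SE 0.27, edgeR FDR 0.000262).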

How the results depend on the processing

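The 10 members' log2 fold changes in 5 comparisons kept their call in 717 of 747 alternative values; 20 lost it, 10 gained it and 0 reversed. The members called in CAF-1 OFF against t0 (5) ranged from 3 to 6 on leaving out a library, with 3 without t0 replicate 1, t0 replicate 2 or CAF-1 OFF replicate 2, and the genes called overall fell from 1836 to as few as 157. Against IPTG control (5) they ranged from 2 to 6, with 3 without CAF-1 OFF replicate 2 or IPTG control replicate 1 and 2 without IPTG control replicate 2. The calls lost were those of Csf3r, Il3ra and Il1r2, and those gained were of Il6st and, in the direct comparison, also of Il3ra. The lone library of a group was assumed to vary like the others. At FDR below 0.01 with 2-fold, 3 members were called against IPTG control. HOXA9 OFF against t0 (9) ranged from 8 to 10, the direct comparison (7) from 7 to 9, and IPTG control against t0 had 0 throughout. Other scalings, filters and DESeq2 left these counts within 1.5 times.

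With the replicate block the members called were 5, 5, 9, 0 and 7, as without it, and the other pathway genes called 24 (22 without it) in each CAF-1 OFF comparison, 51 (50) in HOXA9 OFF against t0 and 43 (42) in the direct comparison. The labels do not say what a shared number means. Across 9839 genes, which are not independent, same-numbered libraries deviated together in t0, IPTG control and HOXA9 OFF (0.39 to 0.62), and those of CAF-1 OFF did not deviate with any group (-0.11 to -0.02).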
